A study of Mus musculus with 25 samples.

Results

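Starved cells of a luciferase hairpin line were compared with fed cells of the parental line, to ask which starvation changes of the parental cells recur in this second starved line. The members were chosen by their labels: 5 libraries of KPC cells carrying a hairpin against luciferase (shLuc), held for 24 h in glutamine-free medium, and 5 libraries of parental KPC cells held in complete medium, 10 of the 25 libraries of the series. KPC is a pancreatic ductal adenocarcinoma cell line of C57BL/6 mice, and the labels do not say which alleles it carries. A further 5 libraries of parental cells starved in the same way defined the parental starvation changes. The starved cells were in glutamine-free DMEM with 10% dialysed serum, and the fed cells for 24 h in complete DMEM with 10% serum. If the fed serum was not dialysed, that difference cannot be told apart from the lack of glutamine in either starved line. The other 10 libraries, starved cells with hairpins against Slug, entered the shared estimate of the spread and the filter on low values, which counted libraries of every group. Luciferase is an insect enzyme that mouse cells lack, so this hairpin is the usual control for a knockdown. No shLuc cells in complete medium are among the libraries, so the lack of glutamine and the hairpin line cannot be told apart in any difference between starved shLuc and fed parental cells. The labels do not say how many clones the shLuc line holds, or whether replicates were separate cultures. Every p-value therefore covers the spread between these libraries only, which may be technical.

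Glutamine is the main nitrogen carrier of cultured tumour cells and feeds the synthesis of nucleotides, of other amino acids and of the intermediates of the tricarboxylic acid (TCA) cycle. When amino acids run short, uncharged tRNA activates the kinase GCN2, which phosphorylates the translation factor eIF2, and the transcription factor ATF4 then switches on genes of amino acid synthesis, uptake and tRNA charging. Slug, the product of Snai2, represses junction genes and drives EMT, the epithelial to mesenchymal transition, in which epithelial tumour cells lose junctions and keratins and gain motile features.

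Total counts ran from 253884 to 466521 per library in fed parental cells, from 158729 to 549893 in starved parental cells and from 269675 to 368504 in starved shLuc cells. A mean of 14195 genes had a count in starved shLuc cells, against 13007 in fed and 12167 in starved parental cells (exact permutation p = 0.0317 and 0.0397, two-sided, n = 5 each). The mitochondrially encoded share of the counts was 19.8% ± 1.65 in starved shLuc cells, 24.0% ± 3.25 in fed and 25.1% ± 1.68 in starved parental cells (SD, n = 5 each, exact permutation p = 0.0397 and 0.00794). It covers every mitochondrially encoded gene, and the 11 protein genes among them made up a small part of it. Their sums ran from 12960 to 16964 CPM in fed, 18719 to 21464 in starved parental and 14047 to 22939 in starved shLuc libraries, so they did not show this drop. The difference of the whole mitochondrially encoded share from fed cells passed the threshold without fed replicate 3 or without shLuc replicate 4, and missed it without any 1 of the other 8 libraries (exact permutation p up to 0.0794). Of the 10 ductal carcinoma markers, keratin 8, 18, 19 and 7 were present in every group, and Epcam had only 2 counts in fed parental, 3 in starved parental and 1 in starved shLuc cells in all. The 10 fibroblast markers summed to at most 18.5 CPM in a starved shLuc library, 9.56 in a starved parental and 8.79 in a fed library, and Col1a2, Col3a1, Lum and Fap had no count in any of these libraries. The leucocyte markers also stood near 0 apart from Cd14, which many epithelial cells express (68.7 ± 11.5 CPM fed, 18.9 ± 9.44 starved parental, 20.2 ± 10.997 starved shLuc). The 7 endothelial markers summed to at most 2.93 CPM in a fed, 12.8 in a starved parental and 26.0 in a starved shLuc library, where the lowest sum was 9.49; Emcn had 1, 1 and 8 counts and Vwf 0, 3 and 6 in the groups in that order, and Cdh5 and Cldn5 had none. The acinar markers summed to at most 23.4, 41.7 and 15.8 CPM, and the islet markers to at most 0, 5.21 and 6.33 CPM. The part of these markers in the differences with shLuc was not tested. Every gene is given in CPM, its counts scaled to the library total. A library is a pool of cells, so fewer cells of a kind and less RNA per cell cannot be told apart.

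Most starvation calls of the parental cells recurred, a larger share of the rises than of the falls. Of 12473 genes tested, 2799 (22.4%) were called in starved against fed parental cells, 1341 higher (10.8%) and 1458 lower (11.7%). Called means an adjusted p under 0.05 (limma with Benjamini-Hochberg adjustment). Starved shLuc against fed parental cells gave 4131 calls (33.1%), 2157 higher (17.3%) and 1974 lower (15.8%). Among the parental calls, 1634 (58.4%) were called in the same direction in starved shLuc cells: 901 rises, which is 67.2% of the parental rises, and 733 falls, which is 50.3% of the parental falls. The 1634 genes are 39.6% of the shLuc calls. The shares of rises and of falls that recur were not worked out at other settings. At some of those the balance of higher and lower shLuc calls turned, as given below. Both comparisons use the same 5 fed libraries, so a deviation of those libraries enters both, and the count is a description without a test of overlap.

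The difference between the starved lines was tested directly, starved shLuc against starved parental cells, where the fed libraries drop out. It gave 2942 calls (23.6%), 1680 higher with shLuc (13.5%) and 1262 lower (10.1%). That excess of higher calls depended on the setting: there were 1446 higher and 1456 lower when only the 3 groups were filtered and fitted, 1425 and 1521 without mitochondrially encoded genes, and 47.8% of the calls were higher with a correction for transcript length. Against fed cells the shLuc balance turned too, to 1910 higher and 2145 lower with only the 3 groups and to 1971 and 2191 without mitochondrially encoded genes. Of the 1634 recurring genes, 1212 were not called different between the starved lines, 319 changed further in shLuc cells (237 rises and 82 falls) and 103 changed less (43 rises and 60 falls). Of the parental calls that did not recur, 557 (19.9%) differed between the starved lines, 210 parental rises and 347 parental falls. For a further 525 (18.8%) neither shLuc comparison made a call, so these are not shown to be absent. A further 83 genes (2.97%) were called in the opposite direction. The starved parental libraries both chose the parental calls and enter the test of the difference, so a chance extreme in them favours a called difference among genes that did not recur.

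**Figure D1:**
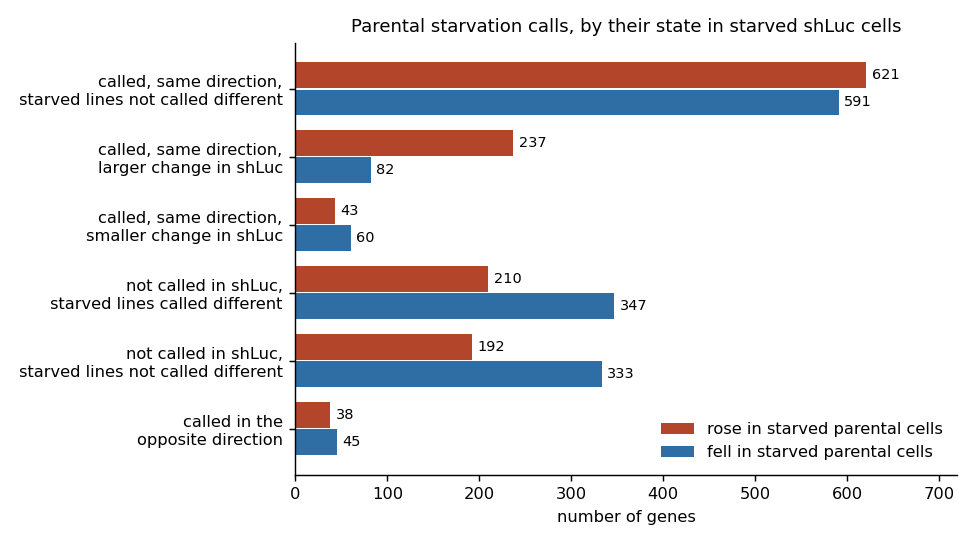
Number of genes called in starved against fed parental cells, by what was found in starved shLuc cells, with parental rises and falls as separate bars. The top bars hold the 621 rises and 591 falls that were called in the same direction and not called different between the starved lines, and the bottom bars the 38 and 45 genes called in the opposite direction.

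The genes that rose furthest in both starved lines were led by the whole Gadd45 family, whose small proteins bind stress kinases and slow the cell cycle. These leading rises, and the leading falls below, were chosen among genes with no overlap between fed and starved libraries. Gadd45a stood at 2.68, 3.94, 8.57, 0 and 0 CPM in the 5 fed parental libraries, at 163, 104, 107, 136 and 155 in the starved parental and at 200.2, 140.2, 167, 127 and 152 in the starved shLuc libraries. Both starved groups lay far above the fed one and overlapped each other. The rise was 51.8-fold in shLuc cells (log2 5.80 ± 0.31, adjusted p = 1.81e-24) and 43.8-fold in parental cells (log2 5.55 ± 0.31, adjusted p = 2.31e-23). Gadd45b rose to 144 ± 22.4 CPM in shLuc and 144 ± 9.56 in starved parental cells from 10.9 ± 8.63 (SD, n = 5 each), and without fed replicate 2 its log2 rise in shLuc cells was 3.40 in place of 4.15. Gadd45g went further in shLuc cells, where the libraries held 2833, 2637, 2927, 2057 and 2182 CPM, against 497, 526, 459.9, 546 and 517 in starved parental and 26.8 to 43.3 in fed cells. The 3 groups did not overlap, and starved shLuc cells were 4.96-fold above starved parental cells (log2 2.30 ± 0.12, adjusted p = 9.21e-24).

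The other leading recurring rises were Egr1, an immediate early transcription factor, Plk2, a polo-like kinase induced by stress, and Bcl2l15, a member of the BCL2 family. Egr1 rose from 5.10 ± 4.03 CPM to 134 ± 44.0 in starved parental and 123 ± 32.4 in starved shLuc cells, and the starved lines were not called different (log2 -0.08 ± 0.32, adjusted p = 0.882). Plk2 rose from 17.9 ± 7.66 to 378 ± 53.4 CPM in parental and to 798 ± 104 in shLuc cells, with no overlap between the starved lines. Bcl2l15 read 2.68, 3.94, 6.43, 2.93 and 2.70 CPM in fed, 60.6, 57.3, 100.8, 125 and 89.4 in starved parental and 229.9, 267, 282, 234 and 185 in starved shLuc libraries. Each starved shLuc library was above every starved parental one, a 2.76-fold difference (log2 1.503 ± 0.21, adjusted p = 6.27e-08).

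The leading recurring falls were led by genes of cholesterol handling. Stard4, which carries cholesterol between membranes, fell from 138 ± 12.9 CPM to 9.06 ± 5.27 in starved parental and 11 ± 7.87 in starved shLuc cells, and its log2 fall of -4.07 with shLuc was -3.31 without shLuc replicate 1. Acat2, the cytosolic thiolase that starts sterol synthesis, read 174, 161, 197, 111 and 119 CPM in fed, 0, 5.21, 6.30, 12.7 and 9.41 in starved parental and 14.8, 16.5, 12.4, 3.16 and 8.14 in starved shLuc libraries. No starved library reached a fed one, and the fall in shLuc cells was 13.9-fold (log2 -3.81 ± 0.53, adjusted p = 2.43e-08). Acat2 has a close paralog, Acat3, and how reads shared between them were counted is not known. Sh2d4a, an SH2-domain adaptor, fell from 63.0 ± 26.8 to 6.14 ± 7.28 CPM with shLuc, and Grb7, an adaptor of growth factor receptors, from 35.3 ± 5.54 to 3.46 ± 4.45. Slc25a23, a mitochondrial ATP-magnesium carrier, had 61 counts in the fed libraries together, 5 in the starved parental and 2 in the starved shLuc libraries, a ratio of 27.7 between fed and shLuc with a 95% counting interval of 7.35 to 234. Ephx1, a microsomal epoxide hydrolase, had 48, 2 and 5 counts.

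**Figure D2:**
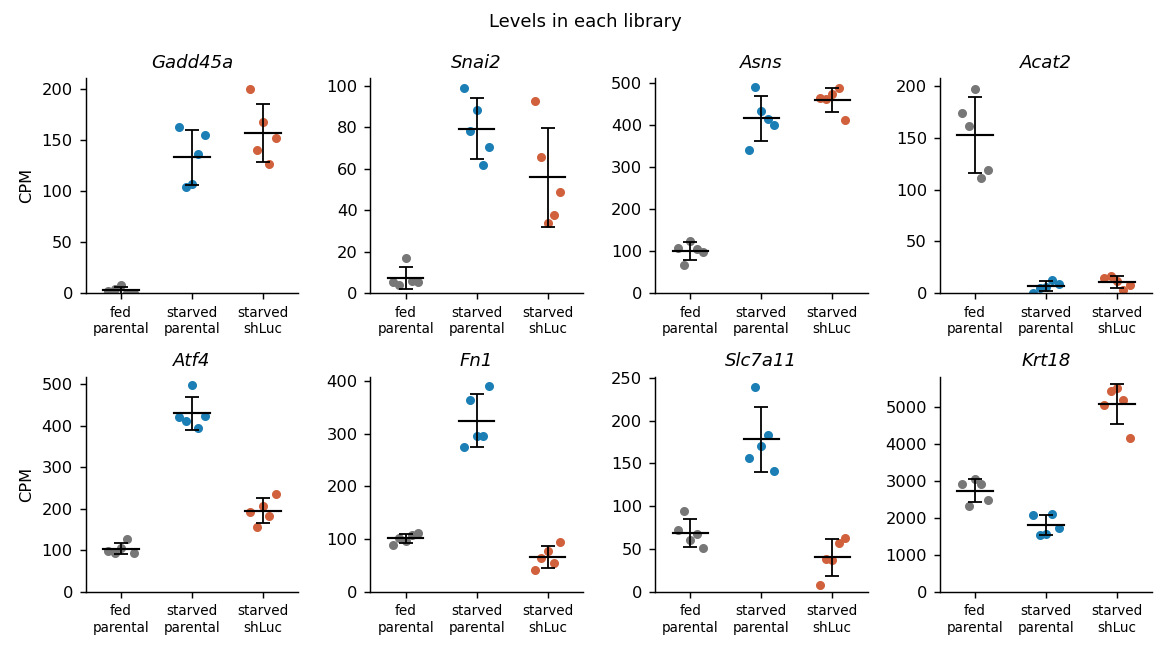
Level in CPM of 8 genes in each library of fed parental, starved parental and starved shLuc cells (5 points a group), with the mean as a line and ± 1 SD as a bar. Gadd45a, Snai2 and Asns stand high and Acat2 low in both starved lines, Atf4 is lower in starved shLuc than in starved parental cells, and Fn1, Slc7a11 and Krt18 stand on opposite sides of the fed level in the starved lines.

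The amino acid response largely recurred. Of its 45 tested genes, 35 rose and none fell in starved parental cells, where 0 of 45 compares with 11.7% of all genes tested. In starved shLuc cells 30 rose, all of them also parental rises, and 5 fell, against 17.3% and 15.8% of all genes. The median log2 change was 1.51 in parental and 1.37 in shLuc cells, against -0.06 and -0.02 over all genes tested. Between the starved lines 5 members were higher and 14 lower with shLuc, against 13.5% and 10.1% of all genes, so the higher count is near the background.

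Atf4 itself rose less in shLuc cells. Atf4 (ENSMUSG00000042406.7, chromosome 15, 80255184 to 80257541, plus strand) read 99.1, 94.5, 105, 126 and 94.5 CPM in fed, 421, 412, 498, 395 and 423 in starved parental and 193, 157, 208, 184 and 236 in starved shLuc libraries. The groups did not overlap, with starved shLuc cells in between: the rise was 1.88-fold (log2 0.90 ± 0.14, adjusted p = 2.96e-07) against 4.14-fold in parental cells, and the starved lines differed (log2 -1.14 ± 0.14, adjusted p = 1.90e-09). Several genes that ATF4 is known to switch on rose in both lines and were not called different between them. Asns, which makes asparagine from aspartate and glutamine, read 107, 67.0, 124, 105 and 97.2 CPM in fed, 341, 489.8, 435, 415 and 399.8 in starved parental and 464, 462, 474, 487 and 412 in starved shLuc libraries, so the starved groups overlapped (log2 0.15 ± 0.13, adjusted p = 0.431). Trib3, a pseudokinase that feeds back on the response, read 8.13 ± 4.197, 108 ± 17.4 and 99.8 ± 18.7 CPM in the same order, and Ddit3, which encodes the stress factor CHOP, 10.5 ± 3.44, 60.1 ± 26.7 and 63.7 ± 19.1.

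Other members rose further with shLuc. Nupr1, a small chromatin protein of stressed cells, rose from 48.0 ± 11.8 CPM to 608 ± 75.2 in parental and to 1765 ± 169.5 in shLuc cells, 2.90-fold apart (log2 1.54 ± 0.12, adjusted p = 6.81e-16). Ppp1r15a, the phosphatase subunit that reverses eIF2 phosphorylation, read 229.5, 224, 227, 224 and 230.5 CPM in starved parental and 501, 407, 310.1, 389 and 353 in starved shLuc libraries, from 15.8 to 32.2 in fed ones. In both genes no starved shLuc library was as low as a starved parental one.

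The members that went against the parental change were amino acid transporters, Slc7a11 and Slc38a2. Slc7a11, the cystine importer that sends glutamate out in exchange, read 72.3, 94.5, 60.0, 67.4 and 51.3 CPM in fed, 156, 239.7, 170.1, 184 and 141 in starved parental and 7.42, 38.5, 37.2, 57.0 and 62.4 in starved shLuc libraries. It rose 2.58-fold in parental cells (log2 1.36 ± 0.31, adjusted p = 0.000492), and in shLuc cells it was below the fed level (log2 -1.01 ± 0.31, adjusted p = 0.00807), with overlap between those groups. Without shLuc replicate 1, the fall against fed cells lost its call (log2 -0.50, adjusted p = 0.137), while the difference between the starved lines did not. Slc38a2, which imports glutamine and small neutral amino acids, rose from 188 ± 35.9 to 311 ± 22.3 CPM in parental cells and was 134 ± 30.8 with shLuc (log2 -0.49 ± 0.17, adjusted p = 0.0193), a fall whose call was lost without fed replicate 2, fed replicate 4 or shLuc replicate 4 (adjusted p from 0.05002 to 0.0802). Slc7a5, which imports large neutral amino acids, rose to 76.3 ± 7.69 CPM from 39.6 ± 15.7 in parental cells and was 40.9 ± 9.61 in shLuc cells, not called against fed (adjusted p = 0.812) and lower than in starved parental cells (log2 -0.91 ± 0.27, adjusted p = 0.00802). Slc38a2 and Slc7a5, and Iars and Gars below, were singled out after their values were seen.

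**Figure D3:**
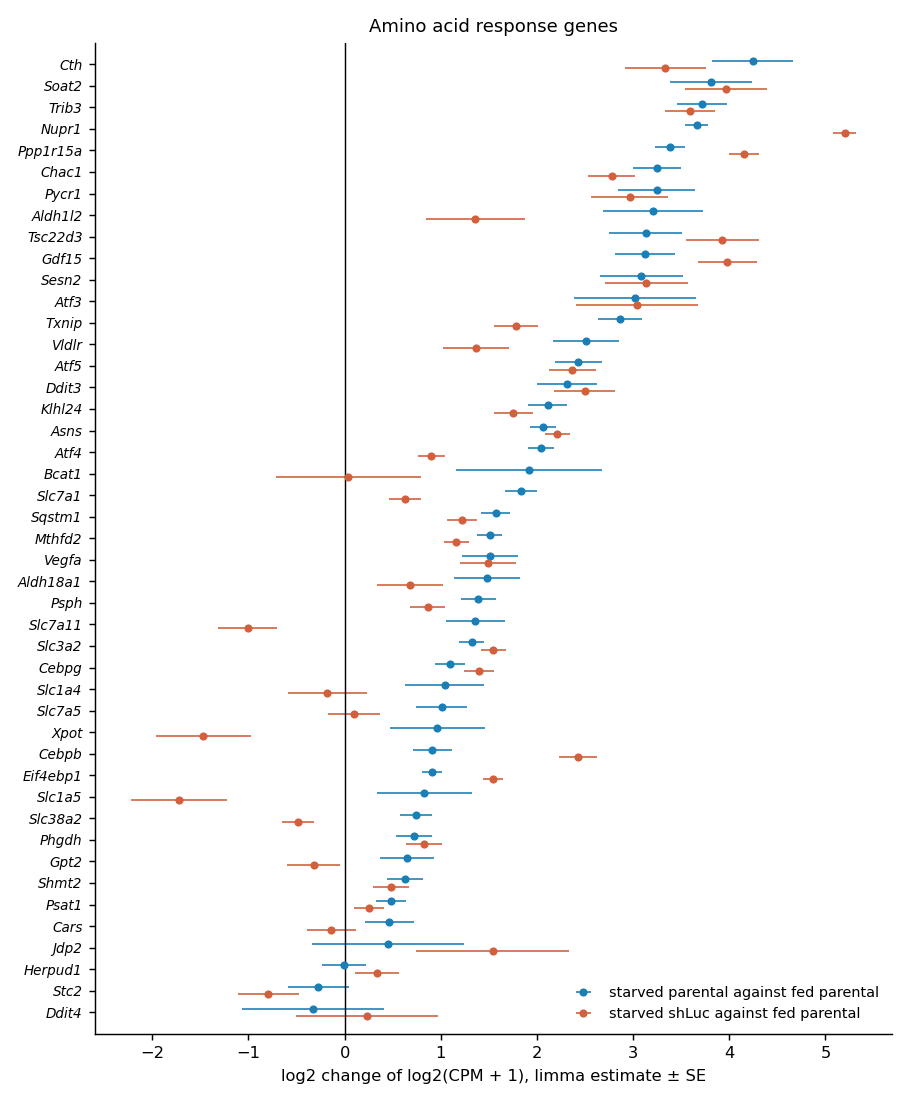
Log2 change against fed parental cells of the 45 tested amino acid response genes in starved parental and in starved shLuc cells (limma estimate ± SE, n = 5 libraries a group), ordered by the parental change. The points of both lines lie to the right for most genes, and Slc7a11 and Slc38a2 lie on opposite sides of 0.

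ATF4 with a partner of the C/EBP family binds the C/EBP-ATF response element (CARE), spelled TGATGNAA, where N is any base. It was looked for on both strands from 250 bases before to 50 after each gene's start, in the RefSeq promoters of the mouse build GRCm38.p6. It was found in 11 of the 37 response genes with a promoter sequence (29.7%) and in 259 of 9201 tested genes (2.81%). Among the response genes it was found in 7 of the 25 that recurred and in 4 of the 12 others, and the list is one of known ATF4 targets, so its share is no independent result. The sites below are shown because their genes recur (Atf3, a stress transcription factor; Chac1, which breaks down glutathione; Asns; Nupr1; Pycr1) or do the opposite (Slc7a11). The capitals mark the element or its complement, each sequence runs 5′ to 3′ on the strand of its gene, and the Slc7a11 window holds a second copy on the other strand, in lower case, near its end.
Atf3 (chr1:191183416-191183463, minus strand): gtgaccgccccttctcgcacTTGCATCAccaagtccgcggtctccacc
Chac1 (chr2:119351029-119351076, plus strand): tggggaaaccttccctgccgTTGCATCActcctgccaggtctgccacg
Asns (chr6:7693210-7693252, minus strand): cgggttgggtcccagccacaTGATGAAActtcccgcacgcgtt
Nupr1 (chr7:126625553-126625600, minus strand): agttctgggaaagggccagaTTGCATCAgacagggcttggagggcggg
Pycr1 (chr11:120643824-120643871, minus strand): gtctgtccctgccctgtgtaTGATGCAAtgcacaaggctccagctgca
Slc7a11 (chr3:50443652-50443699, minus strand): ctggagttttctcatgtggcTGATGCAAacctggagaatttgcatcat

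The cytosolic aminoacyl-tRNA synthetases, which charge tRNAs with amino acids, recurred only in part. Among all genes tested 10.8% rose and 11.7% fell in starved parental and 17.3% rose and 15.8% fell in starved shLuc cells. Of 20 tested, 11 rose and 1 fell in starved parental cells and 9 rose and 4 fell in starved shLuc cells. Between the starved lines 10 were lower and none higher with shLuc, against 10.1% of all genes lower and 13.5% higher. Tars, for threonine, rose in both lines, from 149 ± 13.2 CPM to 425 ± 52.4 in parental and 416 ± 89.3 in shLuc cells. Lars, for leucine, rose to 475 ± 15.8 CPM in parental and to 328 ± 30.1 in shLuc cells from 132 ± 13.1 (log2 -0.54 ± 0.12, adjusted p = 0.000630 between the starved lines). Iars, for isoleucine, read 72.3, 47.3, 87.9, 52.7 and 75.6 CPM in fed, 210.4, 271, 176, 196 and 216 in starved parental and 55.6, 66.0, 77.5, 41.1 and 89.6 in starved shLuc libraries, so the shLuc libraries spanned the fed range (log2 -0.04 ± 0.20, adjusted p = 0.907) and every starved parental library was above them (log2 -1.72 ± 0.20, adjusted p = 6.71e-10). Gars, for glycine, rose from 172 ± 29.2 to 267 ± 39.0 CPM in parental cells and was 129.9 ± 35.6 with shLuc. That fall (log2 -0.43 ± 0.17, adjusted p = 0.0427) lost its call without fed replicate 1, 2, 3 or 4, or shLuc replicate 3 or 4 (adjusted p from 0.0556 to 0.208).

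Genes of glutamine metabolism and transport moved more often down than up in shLuc cells. For all genes tested the shares were 10.8% up and 11.7% down in starved parental and 17.3% up and 15.8% down in starved shLuc cells. Of 24 tested, 9 rose and 3 fell in starved parental and 5 rose and 11 fell in starved shLuc cells, with 4 recurring rises and 3 recurring falls. In the direct comparison 10 were lower and none higher with shLuc than in starved parental cells, against 10.1% of all genes lower and 13.5% higher. Pycr1, which makes proline, rose from 11 ± 11.4 CPM to 73.1 ± 24.96 in parental and 58.7 ± 14.5 in shLuc cells, a log2 rise of 2.96 with shLuc that was 2.24 without fed replicate 1. Got2, the mitochondrial aspartate aminotransferase, read 126, 114, 167, 144 and 111 CPM in fed, 89.3, 72.9, 132, 87.3 and 65.8 in starved parental and 48.2, 27.5, 27.9, 41.1 and 43.4 in starved shLuc libraries. Only the shLuc libraries lay wholly below the fed ones, and the fall was called in shLuc cells (log2 -1.81 ± 0.25, adjusted p = 1.80e-08) and not in parental cells (log2 -0.58 ± 0.25, adjusted p = 0.0839), with a called difference between the starved lines (log2 -1.22 ± 0.25, adjusted p = 0.000120). The parental fall was called without starved parental replicate 3 (adjusted p = 0.0330), on whole counts with edgeR and DESeq2 (adjusted p = 0.00856 and 0.0288), after quantile scaling (adjusted p = 0.0368) and with only the 3 groups (adjusted p = 0.0436).

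Snai2 rose in both starved lines. Snai2 (ENSMUSG00000022676.6, chromosome 16, 14705852 to 14709385, plus strand) read 5.36, 3.94, 17.1, 5.86 and 5.40 CPM in fed, 98.8, 78.2, 88.2, 61.8 and 70.5 in starved parental and 92.7, 66.0, 34.1, 37.98 and 48.8 in starved shLuc libraries. Every starved library of either line was above every fed one, and the starved lines overlapped. The level in starved shLuc cells, 55.9 ± 23.99 CPM, was 7.42-fold that in fed cells, 7.54 ± 5.42 (exact permutation test, two-sided, p = 0.00794, the smallest that 5 against 5 libraries allow), and in starved parental cells it was 79.5 ± 14.5 (p = 0.0952 between the starved lines by the same exact test). Among the other EMT factors, Zeb2 rose from 13.1 ± 9.09 to 64.0 ± 21.8 CPM in parental and to 28.6 ± 7.68 in shLuc cells (log2 1.34 ± 0.39, adjusted p = 0.00566). The Zeb2 rise in shLuc cells lost its call without fed replicate 5 (log2 0.93, adjusted p = 0.0526), and the difference between the starved lines (log2 -1.11 ± 0.39, adjusted p = 0.0308) lost its call without starved parental replicate 1, 2 or 5 or shLuc replicate 1, 2 or 3 (adjusted p from 0.0510 to 0.0942). Zeb1 was 53.6 ± 5.29, 63.6 ± 13.2 and 70.1 ± 10.8 CPM in fed, starved parental and starved shLuc cells, with no call in any comparison, and with the correction for transcript length it was called higher in shLuc than in fed cells (log2 0.58, adjusted p = 0.0471).

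The mesenchymal genes as a group did not move one way. Of 23 tested EMT genes, 12 rose and 4 fell in starved parental and 8 rose and 6 fell in starved shLuc cells. The shares of all genes were 10.8% risen and 11.7% fallen in starved parental and 17.3% and 15.8% in starved shLuc cells. Between the starved lines 9 EMT genes were lower and 2 higher with shLuc, against 10.1% and 13.5% of all genes. The 8 shLuc rises and 4 of its falls recurred from the parental cells. Fn1, the matrix protein fibronectin, read 88.4, 102, 96.5, 108 and 111 CPM in fed, 274, 365, 296, 296 and 390.4 in starved parental and 40.8, 63.2, 77.5, 53.8 and 95.0 in starved shLuc libraries. Every starved parental library was above every shLuc one, a 4.91-fold difference (log2 -2.32 ± 0.21, adjusted p = 1.63e-13). Fn1 was called opposite ways against fed cells (log2 1.66 ± 0.21, adjusted p = 3.56e-09 in parental and log2 -0.66 ± 0.21, adjusted p = 0.0110 in shLuc cells), and the fall lost its call without shLuc replicate 1 (log2 -0.51, adjusted p = 0.0651) and with a correction for transcript length (log2 -0.45, adjusted p = 0.0972). Thbs1, the matrix protein thrombospondin 1, rose from 11.6 ± 4.67 to 88.2 ± 16.8 CPM in parental cells and was 20.3 ± 11.6 with shLuc, not called against fed (adjusted p = 0.285) and different from starved parental cells (log2 -2.23 ± 0.45, adjusted p = 0.000122).

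Vim, the intermediate filament vimentin that is high in mesenchymal cells, fell in both lines, to 659.9, 907, 788, 691 and 762 CPM in starved parental and 352, 396, 378, 348 and 602 in starved shLuc libraries from 1293 to 1414 in fed ones. Every starved shLuc library was below every starved parental one (log2 -0.90 ± 0.12, adjusted p = 4.66e-08). Inhba, a subunit of activin, rose from 20.4 ± 13.2 CPM to 202 ± 22.1 in parental and 305 ± 26.8 in shLuc cells (log2 4.09 ± 0.22, adjusted p = 2.95e-24). The further rise with shLuc (log2 0.59 ± 0.22, adjusted p = 0.0405) lost its call without starved parental replicate 1, 3 or 5 or shLuc replicate 1, 2, 3 or 5 (adjusted p from 0.0548 to 0.0944). Tpm1, an actin-binding tropomyosin, rose from 554 ± 31.5 to 762 ± 77.5 and 1050.3 ± 66.0 CPM.

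Several epithelial genes stood higher in starved shLuc than in starved parental cells. Of 25 tested, 10 fell and 1 rose in starved parental and 8 fell and 2 rose in starved shLuc cells, with 6 recurring falls. Among all genes tested 11.7% fell and 10.8% rose in starved parental and 15.8% fell and 17.3% rose in starved shLuc cells. In the direct comparison 11 were higher and 1 lower with shLuc than in starved parental cells, against 13.5% and 10.1% of all genes. Cdh1, the junction protein E-cadherin, fell from 238, 205, 201, 219.7 and 165 CPM in fed to 95.6, 88.6, 81.9, 52.7 and 56.4 in starved parental and 48.2, 41.2, 55.8, 47.5 and 54.3 in starved shLuc libraries, and the starved lines were not called different (log2 -0.56 ± 0.22, adjusted p = 0.0509). Without starved parental replicate 4 or 5 or shLuc replicate 5 they were, with Cdh1 lower in shLuc cells (adjusted p = 0.0243, 0.0314 and 0.0497), as they were at a minimum of 20 CPM, with only the 3 groups and without mitochondrially encoded genes (adjusted p = 0.0327, 0.0272 and 0.0197). The keratins differed. Krt19 fell from 684 ± 44.3 CPM to 119 ± 23.1 in parental and 211 ± 51.5 in shLuc cells, and Krt8 from 704 ± 93.4 to 196 ± 24.3 and 282 ± 28.4. Krt18, the partner of keratin 8 in simple epithelia, read 2914, 2320.0, 3050.2, 2915 and 2497 CPM in fed, 2075, 1542, 1562, 2120.4 and 1721 in starved parental and 5080.2, 5447, 5529, 5203 and 4176 in starved shLuc libraries. The 3 groups did not overlap: Krt18 fell 1.52-fold in parental cells and rose 1.86-fold in shLuc cells (log2 0.89 ± 0.10, adjusted p = 8.90e-11). It was named after its values were seen, and processed copies of this gene could share its reads. F11r, a tight junction adhesion protein, rose from 47.8 ± 13.3 to 80.2 ± 11.7 CPM in parental and to 203 ± 23.9 in shLuc cells. With the correction for transcript length, the differences of Krt19 and Krt8 between the starved lines lost their calls (adjusted p = 0.0716 and 0.302).

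Outputs of the ERK kinase pathway rose in both lines, 13 of 25 tested in starved parental and 14 in starved shLuc cells, 12 of them the same genes, and 2 fell in each, against 10.8% and 17.3% of all genes higher and 11.7% and 15.8% lower. Fosl1, an AP-1 subunit, read 85.7, 90.6, 135, 111 and 70.2 CPM in fed, 523, 489.8, 510.3, 511 and 479.7 in starved parental and 1498, 1204, 1637, 1218 and 1237 in starved shLuc libraries. The groups did not overlap, and shLuc cells were 2.70-fold above starved parental cells (log2 1.42 ± 0.12, adjusted p = 1.76e-14). Myc, the growth-promoting transcription factor, rose from 113 ± 12.0 CPM to 379.9 ± 20.7 and 431 ± 56.2, with no call between the starved lines (log2 0.17 ± 0.12, adjusted p = 0.303). Of 26 p53 target genes 10 rose and 4 fell in parental and 12 rose and 3 fell in shLuc cells, with 10 recurring rises and 2 recurring falls, beside the same shares of all genes. Cdkn1a, the cyclin-dependent kinase inhibitor p21, rose from 12.9 ± 7.13 CPM to 74.0 ± 10.3 in parental and 179.5 ± 26.3 in shLuc cells (log2 1.27 ± 0.23, adjusted p = 1.50e-05).

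YAP target genes were mixed, 7 higher and 1 lower of 23 in starved parental and 6 higher and 5 lower in starved shLuc cells. Over all genes 10.8% were higher and 11.7% lower in starved parental and 17.3% and 15.8% in starved shLuc cells, so the YAP target counts with shLuc are near the background. Ankrd1, a nuclear ankyrin-repeat protein, rose from 197 ± 9.47 CPM to 578 ± 64.0 and 665 ± 104, and Cyr61, a secreted matrix protein, from 41.9 ± 9.73 to 196 ± 37.2 and 229 ± 28.0. Of 21 NF-kB and inflammatory genes, 6 rose and 3 fell in parental and 10 rose and 2 fell in shLuc cells, with 4 recurring rises and 1 recurring fall. Ptgs2, the inducible cyclooxygenase of prostaglandin synthesis, read 18.7, 27.6, 21.4, 17.6 and 13.5 CPM in fed, 583, 573, 674, 493 and 644 in starved parental and 156, 124, 179.9, 168 and 331 in starved shLuc libraries. It rose 30.03-fold in parental and 9.70-fold in shLuc cells, with no overlap between them (log2 -1.70 ± 0.18, adjusted p = 2.80e-11). Ccl20, a chemokine, was 9.11 ± 4.67, 9.20 ± 5.45 and 49.0 ± 22.5 CPM, and it rose in shLuc cells (log2 2.31 ± 0.38, adjusted p = 1.09e-06) and was not called in parental cells (log2 -0.02 ± 0.38, adjusted p = 0.984).

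Interferon response genes were few, with 12 of the list tested. In starved parental cells 2 rose and 1 fell, near the 10.8% and 11.7% of all genes. In starved shLuc cells 6 rose and none fell, against 17.3% of all genes higher and 15.8% lower. Isg20, an RNA exonuclease, read 37.5, 51.2, 42.9, 35.2 and 37.8 CPM in fed, 60.6, 46.9, 37.8, 47.3 and 51.7 in starved parental and 163, 206, 195, 133 and 130.3 in starved shLuc libraries. All shLuc libraries were above all others, and the call was made with shLuc (log2 1.98 ± 0.19, adjusted p = 3.54e-13) and not in parental cells (log2 0.25 ± 0.19, adjusted p = 0.405). H2-D1, a class I antigen-presenting molecule with close relatives in the genome, rose from 48.4 ± 14.2 CPM to 89.8 ± 26.8 in parental and 142 ± 24.2 in shLuc cells. Its difference between the starved lines (log2 0.70 ± 0.22, adjusted p = 0.0127) lost its call without starved parental replicate 5 (adjusted p = 0.0811).

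Sterol synthesis genes fell in both lines, where 11.7% (starved parental) and 15.8% (starved shLuc) of all genes tested fell. Of 24 tested genes none rose, 18 fell in starved parental and 21 in starved shLuc cells, with all 18 recurring. Their median log2 change was -2.25 in parental and -2.15 in shLuc cells. Between the starved lines 4 differed, 2 each way, against 23.6% of all genes, so this count is near the background. Cyp51, a demethylase of the pathway, read 179, 197, 204, 179 and 157 CPM in fed, 25.5, 31.3, 25.2, 27.3 and 37.6 in starved parental and 14.8, 22.0, 15.5, 25.3 and 16.3 in starved shLuc libraries, a 9.74-fold fall with shLuc (log2 -3.24 ± 0.31, adjusted p = 2.41e-13). Genes of fatty acid synthesis fell too, 13 of 21 in parental and 15 in shLuc cells with 11 the same, and none rose. Scd2, a fatty acid desaturase, fell from 536, 504, 514, 530.2 and 469.7 CPM in fed to 60.6, 67.7, 63.0, 74.6 and 94.1 in starved parental and 18.5, 16.5, 21.7, 34.8 and 27.1 in starved shLuc libraries. The shLuc libraries were all below the starved parental ones (log2 -1.59 ± 0.25, adjusted p = 1.39e-06). Acsl3, which activates long-chain fatty acids, fell from 165 ± 23.1 CPM to 36.7 ± 10.9 and 21.6 ± 5.27.

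SREBP2, the transcription factor of this pathway, binds sterol regulatory elements. One form, TCACNCCAC, looked for on both strands in the same promoter windows, was found in 1 of 17 sterol synthesis genes with a sequence and in 117 of 9201 tested genes (1.27%). The match lay before Hmgcs1, an early enzyme of the pathway and a recurring fall, and is shown with the element in capitals.
Hmgcs1 (chr13:119690194-119690242, plus strand): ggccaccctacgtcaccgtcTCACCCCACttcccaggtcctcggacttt

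**Figure D4:**
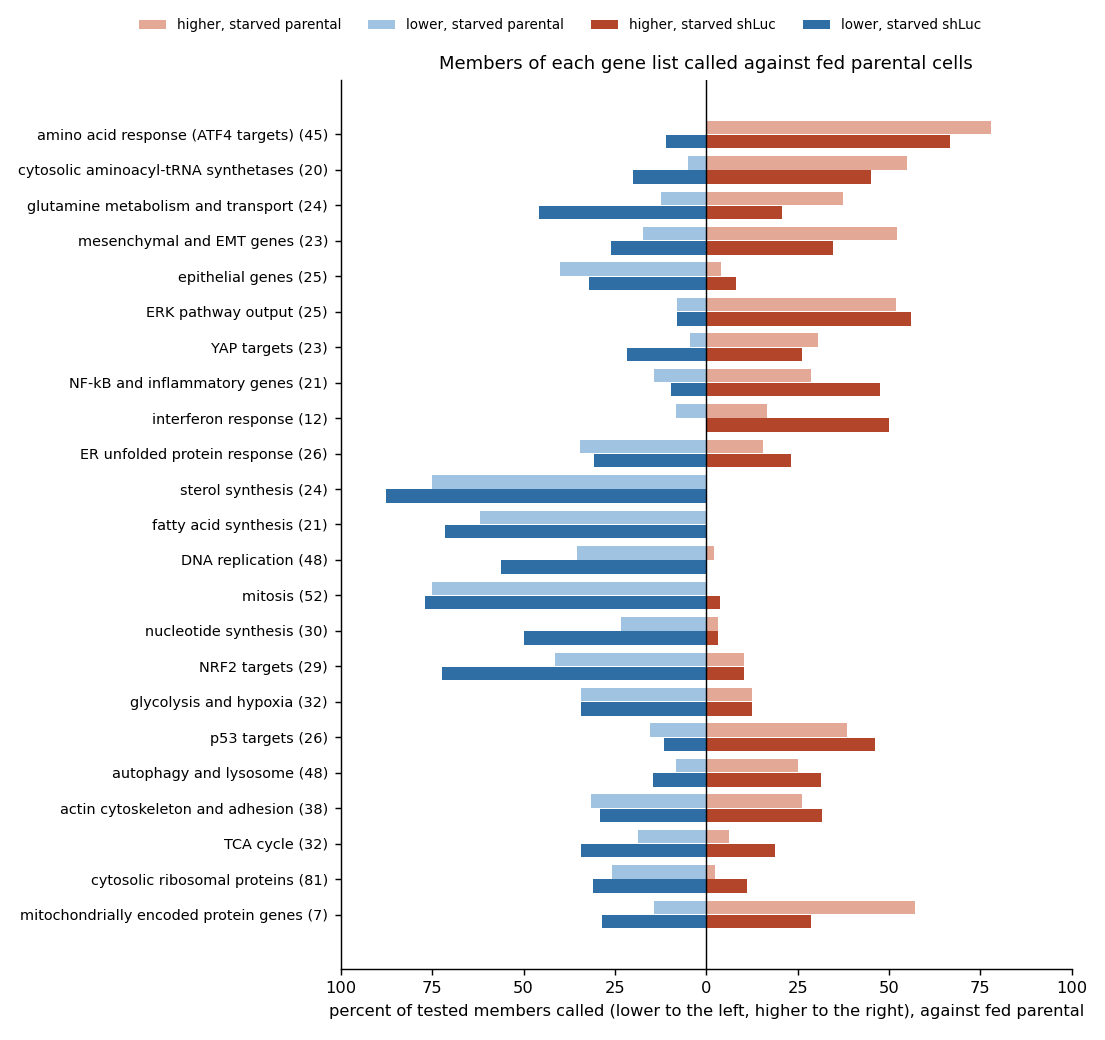
Percent of the tested members of each gene list that were called higher (to the right) or lower (to the left) against fed parental cells, in starved parental cells (light bars) and starved shLuc cells (dark bars), with the number tested in brackets. Sterol synthesis and mitosis show like bars in both lines, and glutamine metabolism shows more falls with shLuc (11 of 24 against 3 of 24).

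Genes of cell division fell in both lines. Of 52 mitosis genes, 39 fell and none rose in starved parental and 40 fell and 2 rose in starved shLuc cells, with 35 falls the same, against 11.7% and 15.8% of all genes lower. Between the starved lines 13 mitosis genes were higher and 8 lower with shLuc, against 13.5% and 10.1% of all genes, and both examples that follow are among the lower. Top2a, the topoisomerase that untangles chromosomes, fell from 415, 457, 429, 513 and 464 CPM in fed to 166, 146, 164, 160.0 and 165 in starved parental and 100.1, 110.0, 83.7, 69.6 and 133 in starved shLuc libraries. The 3 groups did not overlap (log2 -0.72 ± 0.16, adjusted p = 0.000496 between the starved lines). Ccna2, cyclin A2, fell from 188 ± 17.8 CPM to 57.8 ± 21.8 and 24.96 ± 8.59. Of 48 DNA replication genes 17 fell and 1 rose in parental and 27 fell and none rose in shLuc cells, 13 of the falls the same, and 15 were lower and 2 higher with shLuc than in starved parental cells. Lig1, a DNA ligase, fell from 170.2 ± 13.8 CPM to 39.7 ± 11.7 and 38.3 ± 16.7, and Uhrf1, which keeps DNA methylation through replication, from 110.4 ± 24.6 to 46.6 ± 20.6 and 18.5 ± 6.65. Rrm2, a ribonucleotide reductase subunit named after its values were seen, fell from 416 ± 36.4 to 257 ± 24.6 CPM in parental cells and was 415 ± 48.5 with shLuc (log2 -0.01 ± 0.12, adjusted p = 0.966), higher than in starved parental cells (log2 0.69 ± 0.12, adjusted p = 6.99e-06).

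Of 30 nucleotide synthesis genes, 7 fell and 1 rose in parental and 15 fell and 1 rose in shLuc cells, with 5 falls the same, against 11.7% and 15.8% of all genes lower. In the direct comparison 8 were lower and 1 higher with shLuc than in starved parental cells, against 10.1% and 13.5% of all genes. Paics, a purine synthesis enzyme, read 214, 288, 259, 251.9 and 205 CPM in fed, 233, 255, 189, 193 and 216 in starved parental and 66.7, 85.2, 93.0, 79.1 and 81.4 in starved shLuc libraries. All shLuc libraries were below all others (log2 -1.57 ± 0.17, adjusted p = 1.78e-11), and the starved parental libraries overlapped the fed ones (log2 -0.16 ± 0.17, adjusted p = 0.563). Tk1, thymidine kinase, fell in both lines, from 122 ± 28.3 CPM to 19.7 ± 7.86 and 25.1 ± 7.51.

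Redox and carbon metabolism genes fell more often than they rose. Of all genes tested 11.7% fell and 10.8% rose in starved parental and 15.8% fell and 17.3% rose in starved shLuc cells. Of 29 targets of NRF2, the factor of the antioxidant response, 12 fell and 3 rose in parental cells, all 12 of these falls recurred in shLuc cells, and there 21 fell and 3 rose in all. Gsta4, a glutathione transferase, fell from 430.4 ± 55.1 CPM to 56.5 ± 19.4 and 39.7 ± 14.5, and Tkt, transketolase of the pentose phosphate pathway, from 278 ± 37.5 to 164 ± 48.1 and 107 ± 40.9. The Tkt difference between the starved lines (log2 -0.62 ± 0.19, adjusted p = 0.0148) lost its call without starved parental replicate 3 or shLuc replicate 4 (adjusted p = 0.0702 and 0.0568). Of 32 glycolysis and hypoxia genes 11 fell and 4 rose in either line, with 7 recurring falls and 3 recurring rises. The 4 rises are near or below the share of all genes. Tpi1, triosephosphate isomerase, fell from 249 ± 34.9 CPM to 93.8 ± 17.4 and 86.1 ± 26.1, and Ldha, lactate dehydrogenase, from 823 ± 48.7 to 558 ± 23.4 and 464 ± 71.5. Ldha was called lower in shLuc than in starved parental cells without shLuc replicate 3 (adjusted p = 0.0135), at a minimum of 20 CPM (adjusted p = 0.0339), after quantile scaling (adjusted p = 0.000205) and without mitochondrially encoded genes (adjusted p = 0.00488). Of 32 TCA cycle genes 6 fell and 2 rose in parental and 11 fell and 6 rose in shLuc cells, where the 6 rises are near the share of all genes. Idh1, isocitrate dehydrogenase of the cytosol, fell from 103 ± 24.1 CPM to 20.1 ± 8.82 and 16.0 ± 4.53. Mpc1, a carrier of pyruvate into mitochondria, read 174, 181, 195, 184 and 136 CPM in starved shLuc libraries, all above the fed range of 39.4 to 114 and the starved parental range of 65.8 to 107 (log2 1.17 ± 0.19, adjusted p = 1.47e-06).

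In the endoplasmic reticulum the unfolded protein response was mixed, 4 higher and 9 lower of 26 in starved parental and 6 higher and 8 lower in starved shLuc cells. Over all genes 10.8% were higher and 11.7% lower in starved parental and 17.3% and 15.8% in starved shLuc cells, so the higher counts of this list are near the background. Calr, a calcium-binding chaperone, fell in both lines, to 249, 318, 378, 266 and 301 CPM in starved parental and 51.9, 90.7, 83.7, 114 and 168 in starved shLuc libraries from 514 to 644 in fed ones. The groups did not overlap (log2 -1.65 ± 0.19, adjusted p = 3.32e-10 between the starved lines). Derl2, which helps remove misfolded proteins, was 149 ± 21.7 CPM in fed and 182 ± 29.97 in starved parental cells and rose to 339.9 ± 50.1 with shLuc (log2 1.18 ± 0.14, adjusted p = 4.49e-10). Of 48 autophagy and lysosome genes 12 rose and 4 fell in parental and 15 rose and 7 fell in shLuc cells, with 8 recurring rises. Beside the same shares of all genes, these falls are near the background. Of the 7 subunits of the lysosomal proton pump in this list, 4 were higher with shLuc than in starved parental cells, 1 was lower and 2 were not called. All genes tested gave 13.5% higher and 10.1% lower in that comparison. Atp6v0d1 went from 31.2 ± 11.8 CPM to 80.5 ± 9.05 and 135 ± 32.5, and Atp6v1d from 76.2 ± 15.1 to 104 ± 12.2 and 232 ± 31.7. With the correction for transcript length, the Atp6v0d1 difference between the starved lines lost its call (log2 0.31, adjusted p = 0.280). The lower one was Atp6v1a, named after its values were seen, at 129.9 ± 13.2 CPM in fed, 144 ± 31.2 in starved parental and 60.9 ± 24.7 in starved shLuc cells (log2 -1.29 ± 0.23, adjusted p = 1.20e-05). The Atp6v1d rise in parental cells (log2 0.46 ± 0.16, adjusted p = 0.0240) lost its call without fed replicate 2 or 5 or starved parental replicate 1 or 4 (adjusted p from 0.0571 to 0.0800) and on whole counts with edgeR (adjusted p = 0.0649).

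Genes of the actin cytoskeleton and adhesion split between the lines. Of 38 tested, 10 rose and 12 fell in starved parental and 12 rose and 11 fell in starved shLuc cells, but only 5 rises and 6 falls recurred. The shares of all genes were 10.8% risen and 11.7% fallen in starved parental and 17.3% and 15.8% in starved shLuc cells. Between the starved lines 23 differed, 12 higher and 11 lower with shLuc, against 23.6% of all genes. Flna, the actin crosslinker filamin A, read 276, 295, 292, 296 and 283 CPM in fed, 360.2, 459, 523, 400.1 and 574 in starved parental and 119, 184, 195, 114 and 228 in starved shLuc libraries. The 3 groups did not overlap, and Flna rose in parental (log2 0.66 ± 0.17, adjusted p = 0.00262) and fell in shLuc cells (log2 -0.83 ± 0.17, adjusted p = 9.59e-05). S100a6, a small calcium-binding protein, went the other way, from 1369.8 ± 240.2 down to 826 ± 111 in parental and up to 2083 ± 348 CPM in shLuc cells, and with a correction for transcript length its rise lost its call (log2 0.21, adjusted p = 0.111). Flna and S100a6 were named after their values were seen. S100a10, a partner of annexin A2, rose from 253 ± 33.7 to 338 ± 39.6 and 664 ± 27.2 CPM, and Ezr, which ties actin to the membrane, fell from 737 ± 102 to 326 ± 78.3 and 218 ± 44.9.

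Few of the changes in cytosolic ribosomal protein genes recurred. Of 81 tested, 2 rose and 21 fell in starved parental and 9 rose and 25 fell in starved shLuc cells. There were 6 recurring falls and no recurring rise. All genes gave 10.8% risen and 11.7% fallen in starved parental and 17.3% and 15.8% in starved shLuc cells, so the ribosomal rises are below the background. Between the starved lines 40 differed, 22 higher and 18 lower with shLuc, against 23.6% of all genes. These genes have many processed copies whose reads could be shared. Rpl6 fell from 283 ± 49.9 CPM to 138 ± 36.4 and 81.5 ± 20.2. Rps27 was 1168 ± 174 in fed and 1057 ± 141 in starved parental cells and rose to 2300.4 ± 241 CPM with shLuc (log2 0.98 ± 0.11, adjusted p = 2.30e-11). Rpl3, named after its values were seen, rose from 572 ± 55.0 to 808 ± 111 CPM in parental and fell to 357 ± 50.8 in shLuc cells (log2 -0.69 ± 0.12, adjusted p = 2.29e-06). Among 7 mitochondrially encoded protein genes, mt-Cytb, a subunit of complex III, rose from 6551 ± 1039 CPM to 10227 ± 1155 and 12894 ± 2697. Its parental rise was not called after quantile scaling (log2 0.24, adjusted p = 0.187), and without shLuc replicate 1 it was called higher with shLuc than in starved parental cells (log2 0.47, adjusted p = 0.00395), as it was on whole counts with edgeR (log2 0.43, adjusted p = 0.00175). Another, mt-Nd1 of complex I, fell from 3904 ± 381 to 3018 ± 233 and 2501 ± 253 CPM, and its parental fall turned to a log2 difference of 0.0065 after quantile scaling (adjusted p = 0.974). The mt-Nd1 difference between the starved lines (log2 -0.27 ± 0.10, adjusted p = 0.0341) lost its call without starved parental replicate 1, 3 or 4 or shLuc replicate 1, 2 or 4 (adjusted p from 0.0526 to 0.117).

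The parental rises that were not called with shLuc and differed between the starved lines were led by Grem1, a secreted antagonist of bone morphogenetic proteins. The genes named here, and the falls in the next paragraph, were chosen among those with no overlap between the starved lines. Grem1 read 3.19, 15.6, 12.6, 18.2 and 23.5 CPM in the starved parental libraries, and had 1 count in the fed and 1 in the starved shLuc libraries together, against 21 in starved parental cells. The ratio between the starved lines was 24.1 with a 95% counting interval of 3.88 to 998. Slc6a9, a glycine transporter, read 8.03, 11.8, 15, 11.7 and 5.40 CPM in fed, 51.0, 26.1, 37.8, 50.9 and 56.4 in starved parental and 0, 22.0, 12.4, 12.7 and 19.0 in starved shLuc libraries. Every shLuc library was below every starved parental one (log2 -2.18 ± 0.52, adjusted p = 0.00102), and without shLuc replicate 1 this difference was -1.37 (adjusted p = 0.0162). Parp10, an ADP-ribosyltransferase, and Zfp184, a zinc-finger protein, completed the 5 together with Thbs1, at 10 and 8 counts in starved parental and 1 count each in starved shLuc cells. The parental rise of Parp10 lost its call without fed replicate 2, 4 or 5 or shLuc replicate 1, 2, 4 or 5 (adjusted p up to 0.124), that of Zfp184 without fed replicate 1, 2 or 5 or starved parental replicate 2, 3 or 5 (adjusted p up to 0.113), and the difference of Zfp184 between the starved lines without starved parental replicate 3 (adjusted p = 0.0513). On whole counts with edgeR, neither parental rise was called (adjusted p = 0.133 and 0.127).

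The parental falls of the same kind were led by genes of low level. Cadm2, a cell adhesion protein, read 13.4, 23.6, 21.4, 17.6 and 16.2 CPM in fed and 3.71, 19.2, 24.8, 6.33 and 19.0 in starved shLuc libraries, which overlapped, and had 2 counts in starved parental cells. Mall, a membrane-raft protein, had 17 counts in fed, 1 in starved parental and 26 in starved shLuc cells. Nup210l, a nucleoporin-like protein, had 16, 2 and 19, and Nudt17, a hydrolase of the nudix family, 15, 3 and 32. Scly, which frees selenium from selenocysteine, was 6.35 ± 2.70, 2.09 ± 3.21 and 17.5 ± 6.27 CPM. Without shLuc replicate 4 Nudt17 was called higher than in fed cells (log2 1.52, adjusted p = 0.0484). The parental fall of Scly lost its call without fed replicate 2, 4 or 5 or starved parental replicate 2, 3 or 5 (adjusted p up to 0.0907). On whole counts with edgeR, the parental falls of Nudt17 and Scly were not called (adjusted p = 0.0740 and 0.521), and both were called higher in shLuc than in fed cells (adjusted p = 0.0211 and 0.0124).

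Among recurring genes with a called difference, the change was smaller with shLuc by the most in Lgals2, a galectin of gut epithelium. Lgals2 read 924, 733, 877, 888 and 748 CPM in fed, 47.8, 78.2, 69.3, 58.2 and 56.4 in starved parental and 315, 311, 385, 358 and 309 in starved shLuc libraries. The 3 groups did not overlap, and the fall was 13.5-fold in parental and 2.49-fold in shLuc cells (log2 2.43 ± 0.13, adjusted p = 9.21e-24 between them). Vsig1, a junction protein of the stomach, fell from 141 ± 21.8 CPM to 3.99 ± 3.66 and 19.3 ± 10.4, Fzd5, a Wnt receptor, from 36.8 ± 13.4 to 2.003 ± 2.91 and 9.37 ± 3.23, and Gcat, an enzyme of threonine breakdown, from 97.7 ± 10.2 to 14.3 ± 13.4 and 29.9 ± 7.27. The Gcat difference between the starved lines (log2 2.15) was 1.45 without starved parental replicate 3 or 5, and it was not called on whole counts with edgeR (log2 0.84, adjusted p = 0.0807) or DESeq2 (log2 0.85, adjusted p = 0.121). The shLuc fall of Fzd5 (log2 -1.84 ± 0.68, adjusted p = 0.0314) lost its call without fed replicate 1 or 4 or shLuc replicate 2, 4 or 5 (adjusted p from 0.0510 to 0.0793), and its difference between the starved lines was not called on whole counts with edgeR (adjusted p = 0.0925).

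The genes whose change was larger with shLuc by the most had few counts in at least 1 group. Angptl8, a secreted regulator of lipoprotein lipase, had no count in the fed libraries, 22.3, 10.4, 0, 21.8 and 14.1 CPM in the starved parental and 63.0, 49.5, 74.4, 60.1 and 40.7 in the starved shLuc libraries. Taken over each group, it was at least 10.1-fold higher in starved parental and at least 34.1-fold higher in starved shLuc cells than the limit that 0 counts allow (3 counts over the group). Its log2 difference between the starved lines, 2.55, was 1.72 without starved parental replicate 3. Dntt, a template-free DNA polymerase of lymphoid precursors, had 0, 8 and 42 counts in fed, starved parental and starved shLuc cells, at least 15.4-fold higher with shLuc. Draxin, a secreted axon guidance protein, rose from 4.18 ± 3.06 CPM to 22.2 ± 14.96 and 97.6 ± 16.8. Wdr6, a tRNA methylation cofactor, fell from 48.9 ± 10.3 to 12.9 ± 3.15 and 2.85 ± 4.82 CPM, and its parental fall (log2 -1.84 ± 0.68, adjusted p = 0.0409) lost its call without any 1 of the 5 fed libraries or starved parental replicate 1, 2, 3 or 5 (adjusted p up to 0.0906).

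In the opposite class, Flna, Krt18, S100a6, Fn1, Slc7a11, Slc38a2, Gars and Rpl3 were described above. Among the genes of this class with the widest changes both ways was Usb1, which trims U6 RNA, at 11.8 ± 6.07 CPM in fed, 6.27 ± 6.71 in starved parental and 31.9 ± 7.62 in starved shLuc cells. Its parental fall lost its call without fed replicate 1, 3 or 5 or starved parental replicate 2 or 5 (adjusted p from 0.0563 to 0.190), and its rise in shLuc cells without fed replicate 2 or shLuc replicate 4 (adjusted p = 0.0876 and 0.0603). On whole counts with edgeR, the parental fall was not called (adjusted p = 0.375). S100a7a, an epithelial calcium-binding protein, was 41.3 ± 12.7, 18.9 ± 8.37 and 83.5 ± 31.5 CPM, and its rise with shLuc lost its call without shLuc replicate 3 (log2 0.79, adjusted p = 0.0723). Higd1a, a mitochondrial protein of the hypoxia list, and Ctsl, the lysosomal protease cathepsin L, were the opposite members of their lists and were named after their values were seen. Higd1a read 88.4, 70.9, 94.3, 93.7 and 81.0 CPM in fed, 51.0, 41.7, 44.1, 74.6 and 56.4 in starved parental and 119, 206, 152, 120.3 and 144 in starved shLuc libraries, so that all shLuc libraries were above all others, and its parental fall lost its call without the 2 shallowest libraries (adjusted p = 0.0842). Ctsl was 232 ± 17.97, 331 ± 28.0 and 175 ± 49.99 CPM, and its fall with shLuc lost its call without fed replicate 1 or shLuc replicate 1 or 4 (adjusted p from 0.0519 to 0.119).

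Starved shLuc cells also had 2414 calls against fed parental cells that were no parental calls, 58.4% of their calls, 1211 higher and 1203 lower. Of these, 1279 differed between the starved lines (667 higher and 612 lower), and 1135 were not shown to differ. The leading rises were low in both parental groups. No overlap with the fed libraries was a condition for these rises and for the falls in the next paragraph. Lims2, an adaptor of focal adhesions, read 0, 0, 6.43, 0 and 5.40 CPM in fed, 9.56, 0, 6.30, 0 and 4.70 in starved parental and 37.1, 74.2, 27.9, 19.0 and 27.1 in starved shLuc libraries, so that every shLuc library was above every other (log2 3.98 ± 0.61, adjusted p = 2.49e-07). Nlrp12, an innate immune sensor, had 0, 5 and 28 counts, at least 10.3-fold higher in shLuc than in fed cells, and on whole counts with edgeR its rise was called in parental cells too (adjusted p = 0.0390). Cacna1c, a calcium channel subunit, had 1, 4 and 25 counts, a ratio of 27.5 between shLuc and fed with a 95% counting interval of 4.51 to 1130. Dcdc2c, a doublecortin-domain protein, had 3, 9 and 39 counts and Dync1i1, a dynein chain, 3, 4 and 30. The differences between the starved lines lost their calls for Nlrp12 without starved parental replicate 5 (adjusted p = 0.0509) and for Dcdc2c without starved parental replicate 2 or shLuc replicate 3 or 5 (adjusted p from 0.0553 to 0.153). Without starved parental replicate 2, Dcdc2c was called higher in starved parental than in fed cells too (adjusted p = 0.0253).

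The leading falls of this class went close to 0 with shLuc. Def8, a lysosome-positioning protein, read 34.8, 43.3, 36.4, 38.1 and 29.7 CPM in fed, 19.1, 15.6, 12.6, 14.5 and 23.5 in starved parental and 3.71, 0, 3.10, 0 and 2.71 in starved shLuc libraries, with no overlap between any of the groups, and it was not called in parental cells (log2 -1.07 ± 0.64, adjusted p = 0.245). The parental fall was called on whole counts with edgeR (log2 -1.08, adjusted p = 0.0297) and with only the 2 groups compared (adjusted p = 0.0164), which takes Def8 out of this class. Bicdl1, an adaptor of dynein transport, had 35 counts in fed, 18 in starved parental and 1 in starved shLuc cells. Echdc1, an enzyme that repairs a by-product of fatty acid synthesis, had 39, 14 and 2 counts, and Mov10, an RNA helicase, 42, 19 and 3. Olfml2b, a secreted olfactomedin-domain protein, was 19.5 ± 4.09, 11.3 ± 6.57 and 2.71 ± 6.07 CPM, and its shLuc counts came from replicate 5 alone. Without the 2 shallowest libraries, Echdc1 and Olfml2b were not called different between the starved lines (adjusted p = 0.0825 and 0.0828), and on whole counts with edgeR Olfml2b was not (adjusted p = 0.115).

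Transcript length differed between the classes. Among the 1719 genes averaging 100 CPM or more, divided into 5 groups by length, the median log2 difference between starved shLuc and starved parental cells was 0.52 for the shortest and -0.44 for the longest transcripts. Against fed cells the shortest and longest groups had medians of -0.23 and 0.33 in starved parental and 0.22 and -0.23 in starved shLuc cells. Per library, the longest group minus the shortest was -0.22 to 0.17 in fed, 0.31 to 0.61 in starved parental and -0.64 to -0.12 in starved shLuc cells, so the starved lines did not overlap, and shLuc replicate 5 (-0.12) lay within the fed range. Genes called higher with shLuc than in starved parental cells had a median length of 2147 bases and those called lower 4693. In the opposite class the parental rises had a median of 6142 bases and the parental falls 1109, and where the change recurred without a called difference the medians were 3128 for rises and 3077 for falls. Subtracting a smooth trend of the changes with length left 1780 recurring genes (63.2% of the parental calls), 429 not called and different, and 50 opposite. Among the genes named above, that correction ended the calls against fed cells with shLuc of Fn1, Slc38a2, S100a6, Ctsl, S100a7a, Usb1 and Fzd5, and those between the starved lines of Krt19, Krt8, H2-D1, Atp6v0d1, Mpc1, Zeb2 and Dcdc2c, and the parental calls of Usb1 and mt-Nd1. It made calls between the starved lines, lower with shLuc, of Gsta4 (log2 -1.04, adjusted p = 0.0101), Tpi1 (log2 -0.58, adjusted p = 0.0257) and Ldha (log2 -0.65, adjusted p = 5.76e-06), beside the Zeb1 call given above. The part of transcript length in the classes was not tested.

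**Figure D5:**
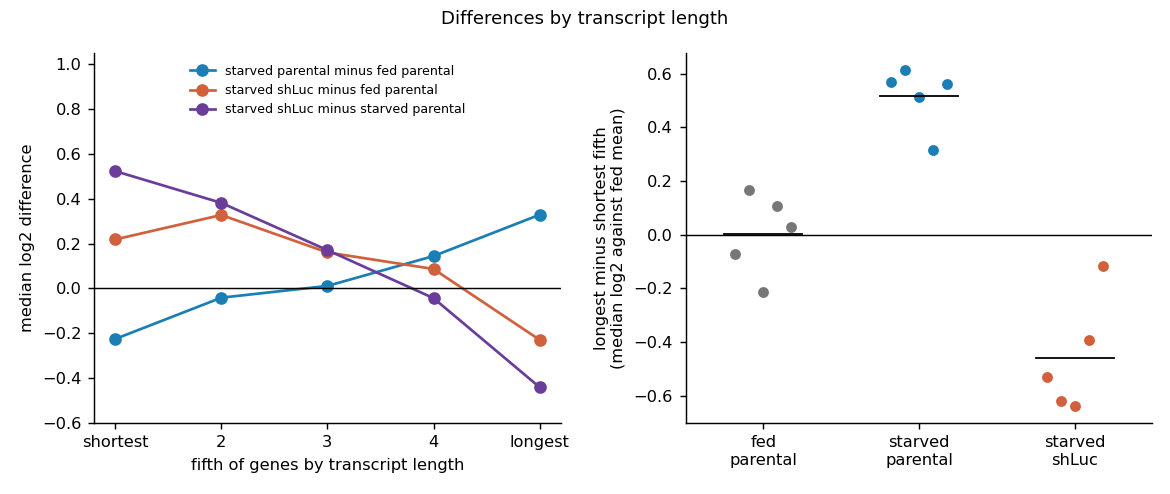
Left, median log2 difference of genes averaging 100 CPM or more, in 5 groups of about equal size by transcript length, for the 3 comparisons. Right, the longest minus the shortest group in each library, relative to the mean of the fed libraries, with the group mean as a line. The starved parental and starved shLuc libraries lie on opposite sides of 0.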

How the data were processed

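Total RNA of 25 cell samples was sequenced. The authors deposited 1 table of normalized counts, which proved to hold CPM, each library scaled to its own total. The genome build was mm10, per the submitters' processing notes, and neither the labels nor the headers name the aligner, the counter or any use of molecular identifiers. Whole counts were recovered from the CPM steps for 100% of values, within 0.001 of a whole number. The tests had been planned for counts, and the CPM unit made limma on log2(CPM + 1) the test.

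A gene entered where 5 or more of the 25 libraries reached 5 CPM, which left 12473 of 30926. All 25 libraries entered 1 model of the group means, with 20 residual degrees of freedom (limma 3.58.1 with a mean-variance trend, R 4.3.3, two-sided, Benjamini-Hochberg over all genes tested). Log2 differences are between means of log2(CPM + 1), where the pseudocount shrinks the change of low genes. Folds are ratios of mean CPM, so they need not equal the log2 difference. Low genes have ratios of pooled counts, whose exact 95% intervals and 3-count limits cover counting error only. Single values were compared by exact permutation tests. The test was tried on simulated counts first. Alternatives used edgeR 4.0.16 and DESeq2 1.42.0 on the whole counts, other pseudocounts, filters and scalings, and leaving out libraries. No pair of libraries of a group was as close as counting noise.

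Named genes were the largest changes of each class (6 recurring rises and 6 falls, 5 and 5 not called and different, 4 smaller and 4 larger, 5 and 5 with shLuc only, 4 opposite), up to 3 of each list by p, and 10 fixed genes. Predicted genes were left out, and some named genes are not reported here. The genes and lists were chosen with earlier results of these data known. Slc38a2, Gars, Krt18, Higd1a, S100a6, Flna, Ctsl, Rpl3, Iars, Slc7a5, Rrm2 and Atp6v1a were chosen after their values were seen.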

Additional observations from a re-analysis of the deposited data

Results flagged for a closer look

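In some groups of 5 libraries the highest or lowest value stood apart from the others by more than Dixon's test allows at its 95% level. This held for 32 of 339 sets of 5 values tested (9.44%), where chance gives about 1 in 20, and many of them were genes with 0 to 3 counts a library, where 1 count sets such a value. In fed parental cells the lowest value stood apart for Stard4 116 CPM (replicate 5) and Ephx1 23.4 CPM (replicate 4). In starved parental cells the lowest value stood apart for Stard4 0 CPM (replicate 3) and Top2a 146 CPM (replicate 2). In starved parental cells the highest value stood apart for Slc25a23 12.8 CPM (replicate 1), Grb7 23.5 CPM (replicate 5), Mall 6.30 CPM (replicate 3), Cadm2 3.64 CPM (replicate 4), Nup210l 3.64 CPM (replicate 4) and Cacna1c 7.27 CPM (replicate 4). The same was seen for Echdc1 31.5 CPM (replicate 3) and Atf4 498 CPM (replicate 3). In fed parental cells the highest value stood apart for Grem1 2.70 CPM (replicate 5), Thbs1 19.7 CPM (replicate 2), Cacna1c 2.68 CPM (replicate 1), Dync1i1 8.10 CPM (replicate 5), Idh1 146 CPM (replicate 2) and Snai2 17.1 CPM (replicate 3). In starved shLuc cells the highest value stood apart for Grem1 3.16 CPM (replicate 4), Parp10 3.10 CPM (replicate 3), Zfp184 2.71 CPM (replicate 5), Wdr6 11.1 CPM (replicate 1), Bicdl1 3.10 CPM (replicate 3) and Olfml2b 13.6 CPM (replicate 5). The same was seen for Vim 602 CPM (replicate 5), Ptgs2 331 CPM (replicate 5), Tkt 179 CPM (replicate 5), Ldha 586 CPM (replicate 3) and Ezr 296 CPM (replicate 5). In starved shLuc cells the lowest value stood apart for Pycr1 33.4 CPM (replicate 1) and mt-Cytb 8180.2 CPM (replicate 1). Starved shLuc replicate 5 also held the most genes with a count, 15386.

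Starved shLuc and starved parental cells, the second starved line and the first, differed by a direct test (limma, adjusted p under 0.05) in 81 of the 110 genes named in the text, 44 higher and 37 lower with shLuc, against 23.6% of all genes tested. The genes were named partly for such differences, so their share is no result. Every value below is the log2 difference, starved shLuc minus starved parental, each over n = 5 libraries. The higher genes with shLuc, from the widest difference down, were Mall 3.46, Cacna1c 3.39, Lims2 3.34, Nudt17 3.27, Cadm2 3.25, Nup210l 3.12 and Scly 3.11. Next came Usb1 2.95, Angptl8 2.55, Nlrp12 2.54, Dync1i1 2.48, Lgals2 2.43, Vsig1 2.42, Dntt 2.38 and Draxin 2.36. They were followed by Ccl20 2.33, Fzd5 2.31, Gadd45g 2.30, Gcat 2.15, S100a7a 2.10, Dcdc2c 2.06, Isg20 1.73 and Nupr1 1.54. Further down stood Bcl2l15 1.503, Krt18 1.501, Higd1a 1.45, Fosl1 1.42, F11r 1.34, S100a6 1.33, Cdkn1a 1.27 and Atp6v1d 1.14. After these came Rps27 1.12, Plk2 1.08, Mpc1 0.99, S100a10 0.98, Derl2 0.90, Krt19 0.80, Ppp1r15a 0.77 and Atp6v0d1 0.72. Last were H2-D1 0.70, Rrm2 0.69, Inhba 0.59, Krt8 0.53 and Tpm1 0.47. The lower genes with shLuc, from the widest difference down, were Grem1 -3.34, Bicdl1 -3.23, Def8 -2.91, Mov10 -2.78, Olfml2b -2.67, Wdr6 -2.64, Echdc1 -2.61 and Parp10 -2.45. Below these came Zfp184 -2.43, Slc7a11 -2.37, Fn1 -2.32, Thbs1 -2.23, Slc6a9 -2.18, Iars -1.72, Ptgs2 -1.70 and Calr -1.65. Then followed Scd2 -1.59, Flna -1.49, Paics -1.41, Atp6v1a -1.29, Uhrf1 -1.27, Slc38a2 -1.23 and Got2 -1.22. Smaller falls were those of Ccna2 -1.18, Rpl3 -1.18, Atf4 -1.14, Zeb2 -1.11, Gars -1.07, Ctsl -0.96, Slc7a5 -0.91 and Vim -0.90. The remaining ones were Rpl6 -0.74, Top2a -0.72, Tkt -0.62, Ezr -0.56, Lars -0.54 and mt-Nd1 -0.27.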

How the results depend on the processing

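Of 11542 checks of named genes under alternative settings, 11269 were counted as unchanged, 211 lost a call, 61 gained one and 1 turned a called direction. That 1 was mt-Nd1 in starved against fed parental cells, at a log2 difference of 0.0065 after quantile scaling. Unchanged means the same side of the threshold, and a turn of direction with no call in either fit was counted there. Slc6a9 in starved shLuc against fed cells was such a turn, from log2 -0.17 to 0.65 without shLuc replicate 1. The count of opposite genes (83) was 44 with no filter on low values, where more genes are tested, and 50 with the correction for transcript length. That correction and the fits without the 2 shallowest libraries were chosen after seeing the data. The count of parental calls neither called nor shown to differ with shLuc (525) was 342 at a minimum of 20 CPM, where fewer genes are tested, and 287 without the 2 shallowest libraries, both starved parental. The cause of these shifts was otherwise not tested. Leaving out 1 library at a time gave 3671 to 4263 calls against fed cells with shLuc, 1441 to 1583 recurring, 458 to 571 not called and different, 436 to 647 not shown to differ, and 56 to 100 opposite genes, and a difference of -5.55 to -3.32 percentage points in the mitochondrially encoded share. On whole counts, edgeR made 4831 calls with shLuc and 1948 recurring, and DESeq2 4056 and 1568. The length correction moved the median of all genes between the starved lines by -0.12 on the log2 scale.

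Deviations of same-numbered libraries of different groups were nearly unrelated (r from -0.0221 to 0.0264 over 15 pairs, median 0.0092 against -0.0028 for other pairs), under the 0.1 set for pairing, so the numbers were not taken to pair samples. As a hint from the data, 10 of 15 libraries correlated best with their own number, which 2 of 10 candidates carry. With a replicate block, 4066 genes were called with shLuc, 2774 in parental cells and 2930 between the starved lines, and 1620 recurred. Depth limits the low genes, where 1 count is worth 2 to 6 CPM.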
